A study of Arabidopsis thaliana with 10 samples.

Results

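The genes described here are the cytochrome P450 genes of Arabidopsis thaliana that the array annotation names. A probe set was taken where its annotation gives exactly 1 gene and the symbol has the form CYP, number, letter, number. This gave 22 genes out of the 13350 that have a named probe set of their own, each with 1 probe set. RefSeq lists 225 genes with symbols of this form, so most of the family is not described here. Of the 22, 18 belong to the subfamily CYP71B, and the others are CYP51G2, CYP78A9, CYP79A2 and CYP84A4. None of the 22 probe sets carries a suffix that marks probes shared between genes.

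Total RNA of plate-grown seedlings of 2 natural ecotypes, Col and C24, was hybridised to 10 one-colour Affymetrix arrays, 2 per group. Col is the accession of the reference genome. Col was sampled at room temperature and after 24 h at 4 °C, and C24 at room temperature and after 3 h and 24 h at 4 °C, which makes 5 groups. No other genotype, transgene or agent is named for any group, and there is no Col group at 3 h. All plants grew on MS plates in a chamber at 23 and 18 °C. Tissue and age are labelled as leaf and 20 days, but the design text has seedlings of 14 days. Both arrays of a group are described there as biological replicates. The question, by the title, is how the ecotypes respond to cold.

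Cytochromes P450 are haem enzymes, most of them in plants anchored in the membrane of the endoplasmic reticulum, that insert 1 atom of oxygen into a substrate with electrons from a reductase partner. The family name encodes sequence likeness: the number gives the family, the letter the subfamily. Plants use P450s to make and break down hormones, sterols, lignin precursors, surface lipids, terpenoids and defence compounds such as glucosinolates and camalexin. CYP71B genes often stand side by side on the chromosome, and few of them have a known substrate. CYP71B6 is known to oxidise indole-3-acetonitrile, an indole defence intermediate, and CYP71B31 to oxidise linalool in flowers.

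Values are deposited log2 signals, and a change is the difference between 2 group means on that scale, where 1 unit means 2-fold. A gene is said to have risen or fallen, or to be called, where limma with Benjamini-Hochberg adjustment over all 22746 non-control probe sets gave an adjusted p below 0.05. Signals of different probe sets are not set against each other, since probes differ in brightness. Replicate arrays correlated across probe sets between 0.99725 and 0.99829. With 2 arrays a group, precision is limited by their number; over the 22 genes the median SE was 0.09 for a change and 0.13 for the difference of responses. The C24 room temperature group lay farther from Col at room temperature (root mean square difference 0.761 over all probe sets, 0.791 over the 22 genes) than the ecotypes lay from each other after 24 h (0.604 and 0.471). C24 after 24 h was about as far from Col at room temperature over all probe sets (0.755) and nearer over the 22 genes (0.522). Changes with cold in C24 are therefore given against Col at room temperature too. The ecotype difference at room temperature enters that control. A fall of a gene higher in C24, or a rise of one lower in C24, must exceed that difference to hold. A rise of a gene higher in C24, or a fall of one lower in C24, has no such difference to exceed, so there the second control is no independent check.

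The 5 measured leaf markers of 7 listed were bright on all arrays. Their mean was 13.61 to 13.64 in Col at room temperature and 13.21 to 13.26 after 24 h, and in C24 it was 13.48 at room temperature and 13.01 to 13.02 after 24 h. At 24 h, 4 of the 5 fell in Col and 5 in C24. The 3 measured root markers of 5 listed (PYK10, EXPA7 and EXPA18) were above the lower quartile on all arrays too, although the label is leaf. Their mean on an array lay at 8.69 to 8.94 in Col at room temperature and 8.10 to 8.11 after 24 h. In C24 it lay at 6.78 to 6.85 at room temperature, 7.86 to 7.89 after 3 h and 7.39 to 7.40 after 24 h. In bulk RNA, fewer cells of a type and less RNA per cell cannot be told apart. For the GAPDH control, the 3' minus the 5' signal, a measure of RNA quality, was 0.0947 to 0.314 on Col arrays, and in C24 it was 0.493 to 0.864 at room temperature, 0.415 to 0.568 at 3 h and 0.374 to 0.389 at 24 h. The mean of the 12 poly-A spike-in probe sets was 5.82 to 5.90 on Col arrays and 6.88 to 7.26 on C24 arrays. The spike-ins, the GAPDH difference and the root markers move with the ecotype, and the leaf markers, the root markers and, in C24, the GAPDH difference move with cold. Their part in the results below was not tested, and neither was the match of C24 sequences to array probes.

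**Figure D1:**
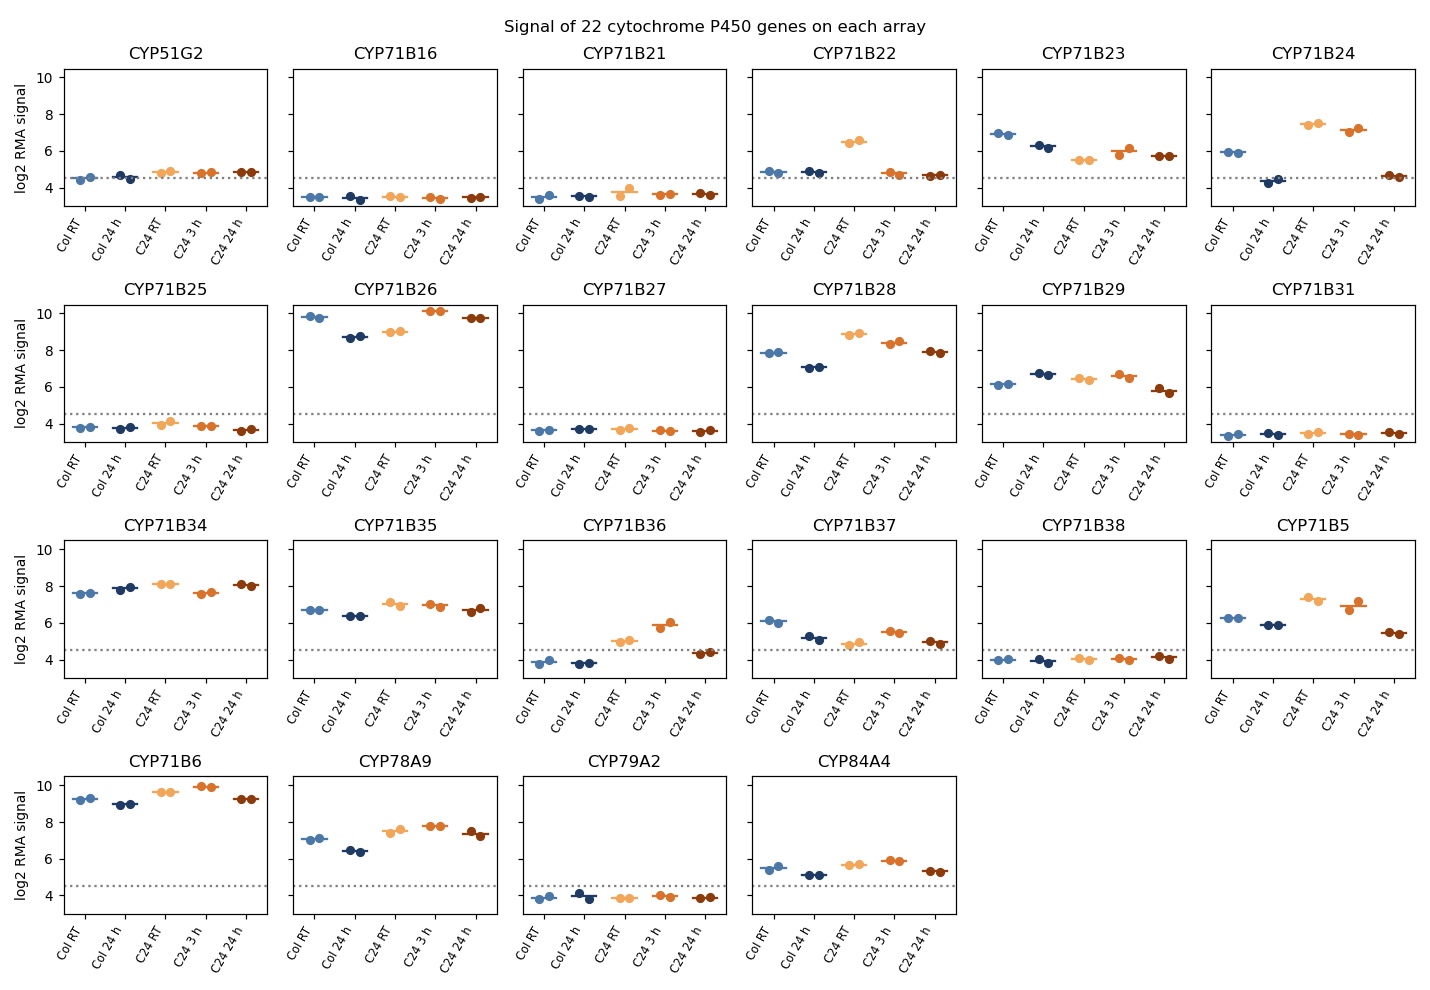
Log2 RMA signal (y axis) of each of the 22 genes on each of the 10 arrays, by group (x axis; RT, room temperature). Points are arrays, bars the mean of 2 arrays, and the dotted line the highest lower quartile of an array (4.521). CYP71B22 stands out on the C24 room temperature arrays (6.41 and 6.59), while 7 genes lie under the line on all arrays.

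Of the 22 genes, 7 had signals under the lower quartile of the array on all 10 arrays (quartiles from 4.483 to 4.521), called the background range here. They were CYP71B16, CYP71B21, CYP71B25, CYP71B27, CYP71B31, CYP71B38 and CYP79A2, and none of them is shown to be transcribed in this material. CYP79A2, which starts benzylglucosinolate synthesis from phenylalanine, ran from 3.79 to 4.11. CYP71B31 ran from 3.32 to 3.55. Among these 7 genes, CYP71B25 alone was called in any of the 7 comparisons. It stood at 3.77 and 3.81 in Col at room temperature, 3.92 and 4.14 in C24 at room temperature and 3.61 and 3.69 in C24 at 24 h. Its fall at 24 h in C24 (-0.38 ± 0.09, SE, limma adjusted p = 0.00333) was kept with each array of the compared groups left out. It was not called against Col at room temperature (-0.14 ± 0.09, 0.199), and the other calls of CYP71B25 were lost without single arrays. Another 12 genes were above the lower quartile on all arrays. CYP51G2, CYP71B24 and CYP71B36 were below it on some.

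After 24 h of cold in Col, most P450 genes that moved went down. By limma, 10 of the 22 fell and 2 rose, against 25.9% and 23.2% of all probe sets. At least 2-fold were 2 of the 22 and 8.38% of all probe sets. Called genes made up 54.5% of the 22 against 49.1% of all probe sets, which is near the background. The median change was -0.09 for the 22 genes and 0.01 for all probe sets. Those 2 were CYP71B24 and CYP71B26, and the rises were those of CYP71B29 and CYP71B34.

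CYP71B24 (AT3G26230), a subfamily member with no known substrate, stood at 5.95 and 5.91 in Col at room temperature and at 4.27 and 4.49 after 24 h. On the C24 arrays it stood at 7.39 and 7.49 at room temperature, 7.04 and 7.22 after 3 h, and 4.70 and 4.56 after 24 h. It was thus high at room temperature in either ecotype, still high in C24 at 3 h, and low in either ecotype at 24 h, with no overlap between 24 h and room temperature arrays. Both Col values at 24 h lie in the background range, so that level is not shown to be above background. The change was -1.55 ± 0.10 (SE, limma adjusted p = 1.82e-07) in Col and -2.81 ± 0.10 (1.16e-09) in C24. Against Col at room temperature the C24 24 h level was also lower, by -1.30 ± 0.10 (4.36e-07). The small fall at 3 h (-0.31 ± 0.10, limma adjusted p = 0.023) was lost when either replicate 2 of C24 at room temperature or replicate 1 of C24 at 3 h was left out (up to 0.171).

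CYP71B26 (AT3G26290), also without a known substrate, moved in opposite directions in the ecotypes. Its signal was 9.88 and 9.75 in Col at room temperature and 8.64 and 8.78 after 24 h. In C24 it was 8.96 and 9.02 at room temperature, 10.11 and 10.14 after 3 h, and 9.73 and 9.77 after 24 h. The lowest arrays were those of cold Col and of C24 at room temperature, and the highest those of C24 at 3 h. It fell by 1.10 ± 0.08 in Col (SE, limma adjusted p = 4.58e-07) and rose in C24 by 1.13 ± 0.08 at 3 h (4.15e-07) and 0.75 ± 0.08 at 24 h (7.51e-06). The responses at 24 h differed by 1.86 ± 0.11 (1.57e-07), the widest difference in either direction among the 22 genes. The C24 rise rests in part on the room temperature arrays: against Col at room temperature, C24 was higher by 0.31 ± 0.08 at 3 h (0.00645), and at 24 h the difference was -0.07 ± 0.08 (0.46).

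CYP71B29 (AT1G13100) was the other gene with opposite calls. It stood at 6.10 and 6.15 in Col at room temperature and 6.74 and 6.65 after 24 h. The C24 arrays read 6.48 and 6.38 at room temperature, 6.72 and 6.48 after 3 h, and 5.92 and 5.64 after 24 h. Cold Col was therefore above and cold C24 at 24 h below both room temperature groups. The change was 0.57 ± 0.11 in Col (SE, limma adjusted p = 0.000917) and -0.65 ± 0.11 in C24 (0.000317), with a difference of responses of -1.21 ± 0.15 (5.97e-05). C24 at 24 h was also lower than Col at room temperature, by -0.35 ± 0.11 (0.0157).

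CYP71B22 (AT3G26200) was high on the C24 room temperature arrays and nowhere else. Those arrays read 6.41 and 6.59, and the other 8 arrays read between 4.65 and 4.91. Col stood at 4.91 and 4.80 at room temperature and 4.90 and 4.80 after 24 h. C24 stood at 4.83 and 4.71 after 3 h and 4.65 and 4.71 after 24 h. The change in C24 was -1.72 ± 0.09 at 3 h (SE, limma adjusted p = 3.46e-08) and -1.81 ± 0.09 at 24 h (1.3e-08), and in Col it was 0.00 ± 0.09 (95% interval -0.19 to 0.19). Against Col at room temperature neither C24 cold group was called (-0.08 and -0.17, limma adjusted p = 0.48 and 0.115). The cold falls of this gene thus rest on the C24 room temperature arrays alone. The Col level lay little above the lower quartile (at most 4.521 on an array), and whether a fall below it could be seen was not tested.

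CYP71B5 (AT3G53280) fell late in C24. Its signals were 6.26 and 6.24 in Col at room temperature, 5.90 and 5.89 in Col at 24 h, and 7.43 and 7.19 in C24 at room temperature. At 3 h the C24 arrays lay apart, at 6.69 and 7.17, and at 24 h they read 5.50 and 5.41. The 24 h change in C24 was -1.86 ± 0.13 (SE, limma adjusted p = 3.65e-07), a 3.62-fold fall, and C24 at 24 h was lower than Col at room temperature by -0.80 ± 0.13 (0.000303). The small fall in Col (-0.36 ± 0.13, 0.0457) was lost when any 1 of the 4 Col arrays was left out, with either other scaling and with the replicate block (up to 0.143). The fall at 3 h (-0.38 ± 0.13, 0.0386) was lost in a fit of the compared arrays alone and when replicate 1 of either compared group was left out (up to 0.367).

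CYP71B28 (AT1G13090), next to CYP71B29 on chromosome 1, fell in both ecotypes, and the difference of the falls was not called. Col read 7.83 and 7.91 at room temperature and 7.02 and 7.09 after 24 h. C24 read 8.83 and 8.93 at room temperature, 8.33 and 8.48 after 3 h, and 7.97 and 7.85 after 24 h. The groups are ordered by cold within each ecotype and C24 lies above Col at either temperature. The 24 h changes were -0.81 ± 0.08 in Col (SE, limma adjusted p = 8.44e-06) and -0.97 ± 0.08 in C24 (1.37e-06), and their difference was -0.16 (95% interval -0.42 to 0.09). C24 at 24 h did not pass the threshold against Col at room temperature (0.04 ± 0.08).

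CYP71B23 (AT3G26210) and CYP71B37 (AT3G26330) were lower in C24 than in Col at room temperature and fell in cold Col. CYP71B23 read 6.98 and 6.87 in Col at room temperature, 6.31 and 6.17 in Col at 24 h, 5.50 and 5.48 in C24 at room temperature, 5.78 and 6.17 at 3 h, and 5.73 and 5.70 at 24 h. CYP71B37 read 6.16 and 5.99, 5.27 and 5.07, 4.81 and 4.93, 5.56 and 5.45, and 4.99 and 4.86 in the same order. Both were highest in Col at room temperature and lowest in C24 at room temperature. In Col they fell by 0.68 ± 0.11 and 0.90 ± 0.10 (SE, limma adjusted p = 0.000341 and 1.27e-05). In C24 they rose at 3 h, by 0.49 ± 0.11 and 0.63 ± 0.10 (0.00386 and 0.000231), and were not called at 24 h. C24 at 3 h nevertheless remained below Col at room temperature, by -0.95 and -0.57 (3.06e-05 and 0.000478).

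CYP71B36 (AT3G26320) was a gene of early cold in C24. The Col arrays read 3.76 to 3.99 and lie in the background range in either condition. C24 read 4.96 and 5.07 at room temperature, 5.73 and 6.06 after 3 h, and 4.31 and 4.41 after 24 h, the last again in the background range. The 3 h arrays were thus the highest and the 24 h arrays the lowest of C24. The change was 0.88 ± 0.11 at 3 h (SE, limma adjusted p = 6.84e-05) and -0.66 ± 0.11 at 24 h (0.00044), and between 3 h and 24 h it was -1.53 ± 0.11 (7.68e-07). Against Col at room temperature, C24 was higher at 3 h (2.02 ± 0.11, 7.59e-08) and at 24 h (0.49 ± 0.11, 0.00305). It was already higher at room temperature (1.14 ± 0.11). Both groups of the 24 h value lie in the background range. A fall of C24 below Col could not be seen, so this control cannot decide whether the 24 h fall holds.

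The genes with a known role changed by less than 1 log2 unit in the cold comparisons. CYP71B6 (AT2G24180), the indole-3-acetonitrile oxidase, read 9.21 and 9.30 in Col at room temperature and 8.93 and 8.99 after 24 h. In C24 it read 9.62 and 9.65 at room temperature, 9.97 and 9.89 after 3 h, and 9.24 and 9.23 after 24 h. It rose at 3 h in C24 by 0.30 ± 0.07 (SE, limma adjusted p = 0.00501) and was lower at 24 h in both ecotypes, by -0.30 ± 0.07 in Col (0.00425) and -0.40 ± 0.07 in C24 (0.000531). The 3 h level was also above Col at room temperature (0.67 ± 0.07, 1.2e-05), and the 24 h level was not below it (-0.02 ± 0.07, 0.823). C24 was already higher than Col at room temperature, by 0.38 ± 0.07.

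CYP84A4 (AT5G04330), which takes part in arabidopyrone synthesis, read 5.40 and 5.59 in Col at room temperature and 5.11 and 5.12 after 24 h. In C24 it read 5.64 and 5.69 at room temperature, 5.91 and 5.87 after 3 h, and 5.35 and 5.28 after 24 h. The 24 h arrays were below the room temperature arrays in each ecotype, by -0.38 ± 0.08 in Col (SE, limma adjusted p = 0.00173) and -0.35 ± 0.08 in C24 (0.00261). Compared with Col at room temperature, C24 was higher at 3 h (0.39 ± 0.08, 0.00157) and not called at 24 h (-0.18 ± 0.08, 0.0669). The rise of 0.22 ± 0.08 at 3 h (0.0398) was lost when any 1 of the 4 arrays compared was left out, with either other scaling and with an intensity trend (up to 0.174).

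CYP78A9 (AT3G61880), a promoter of fruit and seed growth, fell in Col and was not called in C24. Col read 7.002 and 7.10 at room temperature and 6.47 and 6.36 after 24 h. C24 read 7.40 and 7.65 at room temperature, 7.76 and 7.80 after 3 h, and 7.49 and 7.22 after 24 h, where the 24 h and room temperature arrays overlap. The change was -0.64 ± 0.11 in Col (SE, limma adjusted p = 0.000421) and -0.17 ± 0.11 in C24 (0.228). The difference of responses, 0.47 ± 0.15 (0.0291), was lost when replicate 2 of either Col group or replicate 1 of either C24 group was left out (up to 0.121). CYP51G2 (AT2G17330), of the family of sterol 14-demethylases, was called in no cold comparison, with signals from 4.43 to 4.88. It was higher in C24 than in Col at room temperature (0.32 ± 0.09, 0.0093) and after 24 h (0.25 ± 0.09, 0.0364), and either call was lost without single arrays (up to 0.0861 and 0.239).

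**Figure D2:**
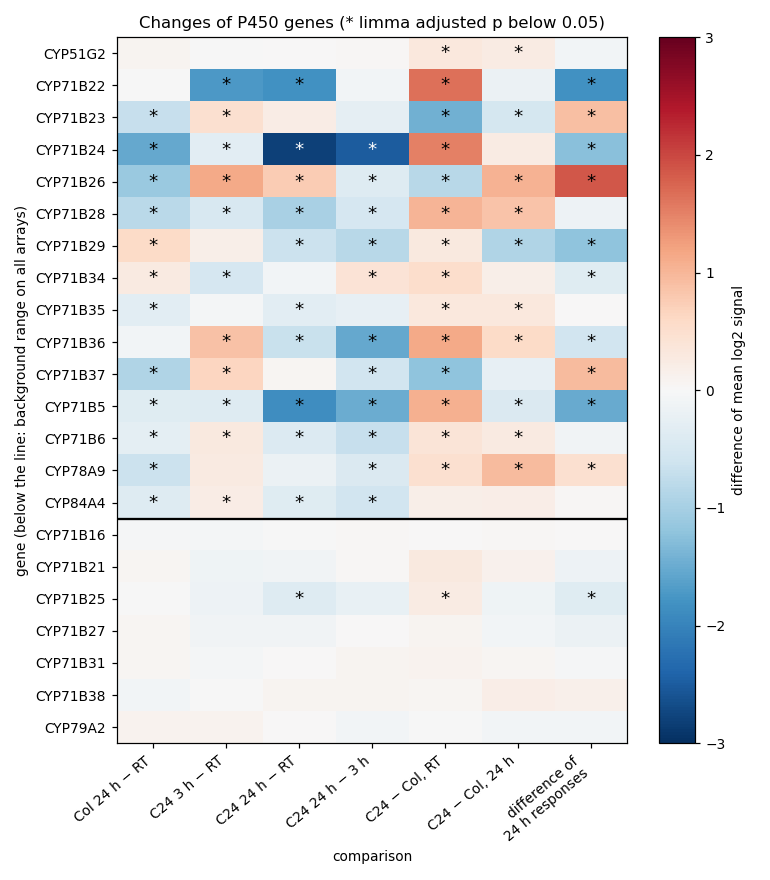
Difference of mean log2 signal (colour) for the 22 genes (y axis) in the 7 comparisons (x axis), with an asterisk where limma's adjusted p was below 0.05. The 7 genes below the line were in the background range on all arrays, and CYP71B24 after 24 h in C24 has the deepest fall (-2.81).

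After 24 h of cold in C24, falls again outnumbered rises, with 10 genes lower and 1 higher (CYP71B26). Of all probe sets 25.4% fell and 24.1% rose. Called genes were 50% of the 22 and 49.5% of all probe sets. The median change was -0.14, against -0.02 for all probe sets. The 3 genes that changed at least 2-fold (11% of all probe sets did) were CYP71B24, CYP71B5 and CYP71B22, all lower. Those that also lay below Col at room temperature past the threshold were CYP71B24, CYP71B5 and CYP71B29, so 3 of the 10 falls and not the 1 rise held against both controls. Of all probe sets called, 54.2% of the falls and 65.4% of the rises did. For CYP71B36 and CYP71B25, Col at room temperature lay in the background range, so a fall below it could not be seen. In the comparison with Col at room temperature itself, 9 of the 22 genes (40.9%) were called, 4 higher and 5 lower and 3 of them by at least 2-fold, where 58.1% of all probe sets were called, 31.2% higher, 26.9% lower and 13.6% by at least 2-fold.

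After 3 h of cold in C24, rises and falls were about equal, 6 and 5, against 22.5% and 23.2% of all probe sets. Called genes were 50% of the 22 and 45.7% of all probe sets. At least 2-fold were CYP71B26 and CYP71B22, and 7.11% of all probe sets. The rises were those of CYP71B26, CYP71B36, CYP71B37, CYP71B23, CYP71B6 and CYP84A4. The falls were those of CYP71B22, CYP71B34, CYP71B28, CYP71B5 and CYP71B24. CYP71B34 (AT3G26300) read 8.13 on both C24 arrays at room temperature, 7.58 and 7.68 at 3 h, and 8.11 and 8.0 at 24 h, so its fall at 3 h (-0.50 ± 0.08, SE, limma adjusted p = 0.000442) was followed by a rise of 0.42 ± 0.08 (0.00146). Against Col at room temperature (7.59 and 7.60) the 3 h level of CYP71B34 was not called. Of the 11 calls, 4 held against Col at room temperature too, the rises of CYP71B26, CYP71B36, CYP71B6 and CYP84A4, and none of the 5 falls did (0 of 5). Of all probe sets called, 47% of the rises and 32.9% of the falls did. The 5 genes that fell were all higher in C24 than in Col at room temperature, by 0.54 (CYP71B34) to 1.64 (CYP71B22). A fall smaller than that difference cannot hold against Col. Of the 4 rises that held, CYP71B36 (1.14) and CYP71B6 (0.38) were already higher in C24 at room temperature. Their levels above Col at 3 h include that difference, and their rises had none to exceed. CYP84A4 differed by 0.17 at room temperature (not called), and its 3 h rise was small (0.22). CYP71B26 alone was lower in C24 at room temperature (-0.82). CYP71B24 (1.21), CYP71B28 (0.53) and CYP71B5 (0.68) were higher in C24 at 3 h than in Col at room temperature (limma adjusted p from 1.4e-06 to 0.00134). In the comparison with Col at room temperature itself, 12 genes (54.5%) were called, 10 higher and 2 lower and 2 of them by at least 2-fold, where 47.9% of all probe sets were called, 26% higher, 21.9% lower and 8.31% by at least 2-fold. Leaving out replicate 1 of C24 at 3 h left 3 falls.

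Between 3 h and 24 h in C24, 10 genes fell and CYP71B34 rose, against 22.5% and 21.7% of all probe sets. Called genes were 50% of the 22 and 44.3% of all probe sets. The median change was -0.26 for the 22 genes and 0.02 for all probe sets. CYP71B24 (-2.50 ± 0.10), CYP71B36 (-1.53 ± 0.11) and CYP71B5 (-1.48 ± 0.13) were the 3 at least 2-fold lower, against 7.21% of all probe sets changed at least 2-fold (SE, limma adjusted p = 7.02e-09, 7.68e-07 and 3.79e-06). The change in this comparison uses no room temperature arrays, while its SE and adjusted p pool the spread of all 10 arrays. The call of CYP78A9 (-0.43 ± 0.11, 0.0068) was lost when replicate 2 of C24 at 24 h was left out (0.0795).

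At room temperature C24 and Col differed in 15 of the 22 genes, 12 higher and 3 lower in C24, against 32.7% and 23.4% of all probe sets. Called genes were 68.2% of the 22 and 56% of all probe sets. CYP71B22 (1.64 ± 0.09), CYP71B24 (1.51 ± 0.10), CYP71B36 (1.14 ± 0.11), CYP71B5 (1.06 ± 0.13) and CYP71B28 (1.01 ± 0.08) were higher by at least 2-fold (SE, limma adjusted p from 2.68e-08 to 4.06e-05). The lower genes were CYP71B23 (-1.43 ± 0.11), CYP71B37 (-1.20 ± 0.10) and CYP71B26 (-0.82 ± 0.08), with adjusted p from 7.4e-07 to 3.73e-06. At least 2-fold were 7 of the 22 and 11.2% of all probe sets. The 3 measured root markers were lower in C24 in the same comparison (median -2.04), and their part in these differences was not tested. The small differences of CYP51G2, CYP71B25, CYP71B29 and CYP71B35 (0.24 to 0.32) were lost without 1 array or another (up to an adjusted p of 0.276).

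After 24 h of cold the ecotypes differed in 10 of the 22 genes, 7 higher and 3 lower in C24, against 28.1% and 21.2% of all probe sets. Called genes were 45.5% of the 22 and 49.3% of all probe sets. CYP71B26, the 1 gene of the 22 changed at least 2-fold (8.12% of all probe sets), was higher in C24 by 1.03 ± 0.08 (SE, limma adjusted p = 8.62e-07), CYP78A9 by 0.94 ± 0.11 (2.4e-05), CYP71B28 by 0.85 ± 0.08 (6.3e-06) and CYP71B36 by 0.58 ± 0.11 (0.0013). Lower in C24 were CYP71B29 (-0.91 ± 0.11, 2.83e-05), CYP71B23 (-0.53 ± 0.11, 0.00215) and CYP71B5 (-0.44 ± 0.13, 0.0166). Of the genes called at both temperatures, 7 kept the sign of the ecotype difference, and CYP71B26, CYP71B29 and CYP71B5 turned it. CYP71B36, 1 of the 7, lay in the background range on all arrays of this comparison (3.76 and 3.81 in Col, 4.31 and 4.41 in C24). Neither of its levels at 24 h is thus shown to be above background. The lower level of CYP71B5 was not called when either Col 24 h array or replicate 2 of C24 at 24 h was left out (up to 0.0861). The higher level of CYP71B35 (0.33 ± 0.10, 0.0155) was lost when replicate 2 of either group was left out (up to 0.131).

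The 24 h responses differed between the ecotypes for 11 of the 22 genes (50%), against 39.5% of all probe sets (20.4% higher, 19.1% lower). At least 2-fold were 5 of the 22 and 11.2% of all probe sets. The response was higher in C24 for CYP71B26, CYP71B37, CYP71B23 and CYP78A9 and lower for CYP71B22, CYP71B5, CYP71B24, CYP71B29, CYP71B36, CYP71B25 and CYP71B34. CYP71B25 lies in the background range throughout, CYP71B36 does so on all Col arrays and in C24 at 24 h, and CYP71B24 does so in Col at 24 h. A fall below that range cannot be seen, so the differences of these 3 genes depend on the floor and their size is not determined. CYP71B22 lay little above the lower quartile in Col (means of 4.85) and in C24 at 24 h (4.68), so its difference may depend on the floor too. The room temperature arrays of both ecotypes enter this comparison and that of the ecotypes at room temperature, so the results of the pair are not independent. The count of lower responses, 7, dropped to 4 when replicate 1 of Col or replicate 2 of C24 at room temperature was left out. The 6 genes that fell in both ecotypes were CYP71B24, CYP71B28, CYP71B35, CYP71B5, CYP71B6 and CYP84A4. None rose in both (0 of 22), and CYP71B26 and CYP71B29 had opposite calls. Of all probe sets, 13.5% fell in both, 12.2% rose in both and 7.73% had opposite calls. Among those falling in both, the Col call of CYP71B35 (-0.33 ± 0.10, SE, limma adjusted p = 0.0149) was lost without either Col room temperature array or Col 24 h replicate 2 (up to 0.065). Its C24 call (-0.32 ± 0.10, 0.0167) was lost when replicate 1 of either compared group was left out (up to 0.154), and C24 at 24 h was not called against Col at room temperature (0.992). For CYP71B35, CYP71B6 and CYP84A4 the difference of responses was not called, with 95% intervals of -0.29 to 0.31, -0.32 to 0.12 and -0.22 to 0.27.

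**Figure D3:**
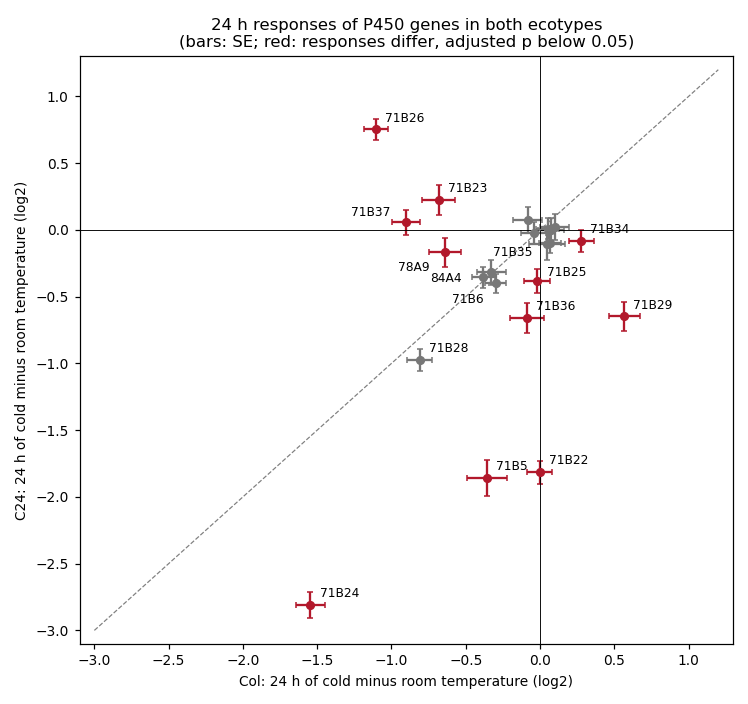
Change after 24 h of cold in Col (x axis) and in C24 (y axis), as differences of log2 signals with SE bars (2 arrays per group), for the 22 genes. Red points are the 11 genes whose responses differed past the threshold; the dashed line marks equal responses, and CYP71B26 lies to the left of 0 and above 0. Labels omit the letters CYP.

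Of the 22 genes, 11 lie in 1 run on chromosome 3. By the RefSeq gene order of assembly TAIR10.1, the run from CYP71B16 to CYP71B37 holds 24 annotated genes, 18 of them CYP71B. Of those 11, 8 were above the background range on at least 1 array. Some neighbours in the run had opposite calls and others the same. Hybridisation of 1 copy's RNA to another copy's probes was not tested. CYP71B22 fell in C24 at 3 h (-1.72) while CYP71B23, the next gene, rose (0.49), and CYP71B24, with CYP71B3 in between, fell (-0.31). CYP71B26 rose at 3 h (1.13) while CYP71B34 fell (-0.50), with CYP71B33 between them. The 4 adjacent genes CYP71B34 to CYP71B37 gave a fall, no call (-0.07), a rise (0.88) and a rise (0.63) at 3 h in C24, and a rise (0.28), a fall (-0.33), no call (-0.09) and a fall (-0.90) in Col. The Col rise of CYP71B34 was lost without either Col room temperature array or Col 24 h replicate 2 (adjusted p up to 0.134). CYP71B35 and CYP71B36, in turn, had 3 comparisons with the same call and 0 with opposite calls. Among the 15 genes not in the background range on all arrays, 7 pairs had at most 1 gene between them, and 6 of these had opposite calls in at least 1 of the 7 comparisons, which share arrays. So did 66 of the 98 other pairs of these genes (67.3%), and nothing particular to neighbours is read from this.

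**Figure D4:**
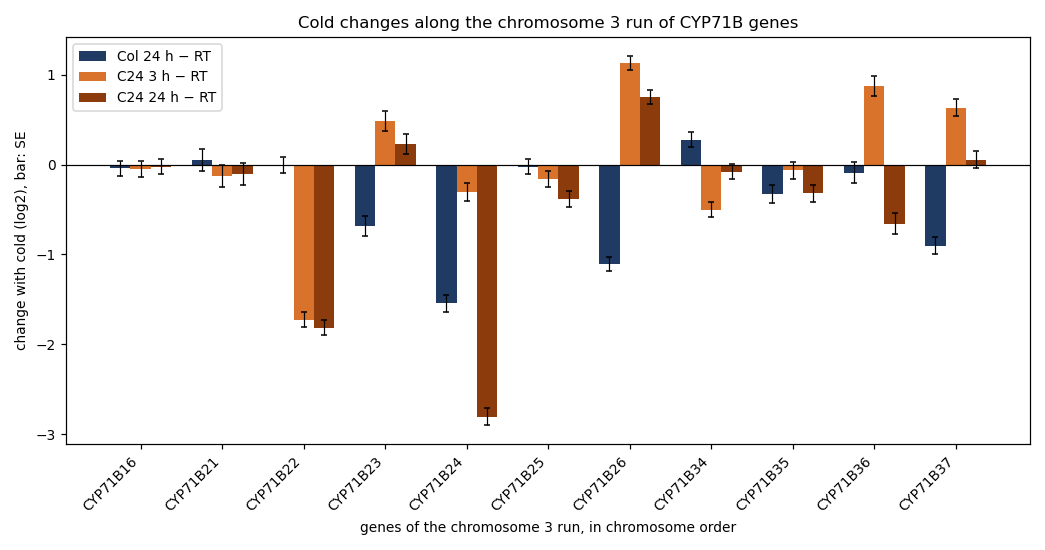
Change with cold (log2, y axis; bars, SE, 2 arrays per group) of the 11 genes of the chromosome 3 run, in chromosome order (x axis), for Col at 24 h and C24 at 3 h and 24 h. Next to each other, CYP71B22 has no change in Col (0.00) and falls in C24, while CYP71B23 falls in Col (-0.68) and rises at 3 h in C24 (0.49).

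Another probe set in this run is shared by CYP71B19 and CYP71B20 and is no member of the 22, since its signal cannot be assigned to either gene. It read 8.67 and 8.72 in Col at room temperature, 7.96 and 7.95 after 24 h, 9.65 on both C24 arrays at room temperature, 9.68 and 9.67 after 3 h, and 7.17 and 7.11 after 24 h. Like CYP71B24 it was still high at 3 h and low at 24 h in C24, with no call at 3 h (0.02 ± 0.07, SE) and a fall by 24 h in C24 (-2.51 ± 0.07, limma adjusted p = 1.8e-10) and in Col (-0.74 ± 0.07, 3.19e-06). Relative to Col at room temperature, C24 was higher at 3 h (0.98 ± 0.07, 3.6e-07) and lower at 24 h (-1.55 ± 0.07, 5.27e-09). The pseudogene CYP71B30P, near CYP71B5, was in the background range on all arrays.

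Of 10 electron donors and scaffold proteins of P450s listed for comparison, such as the P450 reductases ATR1 and ATR2, none has a named probe set here, and the same holds for the listed other genes of abscisic acid, brassinosteroid and jasmonate metabolism. Of 19 other glucosinolate genes, 4 were measured. All 4 fell in Col at 24 h, the aminotransferase BCAT4 (-0.98 ± 0.08), the glutathione transferase GSTU20 (-0.81 ± 0.08), and the glucosyltransferases UGT74B1 (-1.34 ± 0.07) and UGT74C1 (-1.46 ± 0.07) (SE, limma adjusted p from 3.59e-08 to 7.09e-06). In C24 at 24 h, BCAT4 (-0.71 ± 0.08) and UGT74C1 (-0.59 ± 0.07) fell, and GSTU20 (-0.06 ± 0.08) and UGT74B1 (-0.11 ± 0.07) were not called. At 3 h in C24, GSTU20 (0.42) and UGT74B1 (0.29) rose, UGT74C1 (-0.37) fell, and BCAT4 (-0.03) was not called. With Col at room temperature as the control, the ecotype difference at room temperature enters these results. That difference was 0.36 for BCAT4 (limma adjusted p = 0.00177) and -0.50 for UGT74B1 (0.000139). It was not called for GSTU20 (-0.07) and UGT74C1 (-0.03). Against this control, GSTU20 (0.34) and BCAT4 (0.33) were higher in C24 at 3 h, and UGT74B1 (-0.21) and UGT74C1 (-0.40) lower. UGT74B1 thus rose at 3 h and remained below Col at room temperature (limma adjusted p = 0.039). At 24 h BCAT4 (-0.34), UGT74B1 (-0.61) and UGT74C1 (-0.62) were lower, and GSTU20 (-0.13) was not called.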

How the data were processed

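Total RNA on 10 one-colour Affymetrix arrays was measured in 5 groups of 2. The authors deposited log2 signals, for which the submitters' processing notes name GCOS and RMA, with versions not given in the sources used here. RMA corrects background, normalises quantiles and summarises probes. Whether all arrays were processed together is not stated. No detection calls were used. Of 22810 probe sets, 64 controls were left out. Gene names came from the platform annotation (13513 probe sets with 1 gene, 503 with several, 8730 with none) and locus codes from RefSeq, matched through the gene ID for all 22 genes.

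One model of 5 group means was fitted to 22746 probe sets without a filter (limma 3.58.1, R 4.3.3, lmFit and eBayes), and 7 contrasts were adjusted by Benjamini-Hochberg within each. The fit was tested on simulated data with independent noise and far fewer changed probe sets than were called here. That test therefore says little about error rates in these data. The genes, role groups and lists were chosen with earlier results of these data known. Named were the genes with the 8 largest called rises and falls in each cold comparison with room temperature, those with the 6 largest in the other comparisons, those with a listed role and near neighbours; CYP51G2, CYP71B16 and CYP71B38 fall outside this rule and are named so that every gene is accounted for. Genes of the lists leaf, root and glucosinolate were matched by locus (12 of 66 listed genes over all 7 lists). The RefSeq coordinates served to order the genes on a chromosome and are not printed, as the array values name no build.

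Alternatives were repeated quantile normalisation, median centring, the replicate block, eBayes with a trend and a robust prior, and removal of dim probe sets. Others were only the arrays compared, a 2-fold threshold, a second control group for C24 and each array of the compared groups left out. The average of several probe sets per gene could not be tried, since each gene had 1.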

Additional observations from a re-analysis of the deposited data

Results flagged for a closer look

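The 24 h responses of 11 genes differed between the ecotypes by the test of the difference itself (limma, Benjamini-Hochberg over all probe sets). The difference, C24 minus Col, was 1.86 for CYP71B26, 0.96 for CYP71B37, 0.91 for CYP71B23 and 0.47 for CYP78A9. It was -1.81 for CYP71B22, -1.50 for CYP71B5, -1.26 for CYP71B24, -1.21 for CYP71B29, -0.57 for CYP71B36, -0.36 for CYP71B25 and -0.36 for CYP71B34. For CYP71B22 the C24 room temperature arrays alone were high. Its other arrays lay little above the lower quartile, so the size of its difference may depend on the floor. CYP71B25 lay in the background range on all arrays, CYP71B36 on all Col arrays and in C24 at 24 h, and CYP71B24 in Col at 24 h, so the sizes given for these 3 depend on the floor and are not determined. The calls of CYP71B25, CYP71B34, CYP71B36 and CYP78A9 were lost when single arrays were left out (adjusted p up to 0.143, 0.115, 0.0627 and 0.121). Those of the other genes were kept with each array of the compared groups left out.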

How the results depend on the processing

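With 2 arrays per group and no detection calls, small changes and dim genes are poorly determined. No change of a gene turned its sign past the threshold in the results counted next, which leave out the second control group. Against that control, Col at room temperature, some genes called in C24 had the opposite sign. That value is the change with cold plus the ecotype difference at room temperature, so it shows no reversed response to cold. CYP71B24, CYP71B28 and CYP71B5 fell at 3 h yet stayed above Col at room temperature (1.21, 0.53 and 0.68). Their ecotype differences at room temperature were 1.51, 1.01 and 1.06. CYP71B23 and CYP71B37 rose at 3 h yet stayed below Col (-0.95 and -0.57), with ecotype differences of -1.43 and -1.20. CYP71B36 fell at 24 h yet read higher than Col (0.49), with both groups of that comparison in the background range. Of 875 gene results under other settings, 845 stayed on their side of the threshold, 13 lost the call and 17 gained it; of 704 with 1 array left out, these were 630, 60 and 14. The cause of the lost and gained calls was not tested.

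Required to be at least 2-fold, calls in Col at 24 h dropped to 2 (0 higher, 2 lower), in C24 at 3 h to 2 (1 and 1), in C24 at 24 h to 3 (0 and 3), and between 24 h and 3 h to 3 (0 and 3). Between ecotypes they dropped to 7 at room temperature (5 higher) and to 1 at 24 h (1 higher, 0 lower), and for the difference of responses to 5 (1 and 4). Required to hold against Col at room temperature too, calls in C24 at 3 h dropped to 4 (0 lower) and at 24 h to 3 (0 higher, 3 lower). A fit of the compared arrays alone gave 2 higher genes in C24 at 24 h.

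With single arrays left out, counts ran from 9 to 11 in Col at 24 h (1 to 2 higher, 8 to 9 lower), 8 to 11 in C24 at 3 h (5 to 6 higher, 3 to 6 lower), 10 to 11 in C24 at 24 h (9 to 10 lower) and 11 to 12 between 24 h and 3 h. Between ecotypes they ran from 11 to 14 at room temperature (8 to 11 higher) and 7 to 10 at 24 h (5 to 8 higher, 2 to 3 lower), and for the difference of responses from 8 to 11 (3 to 4 higher, 4 to 7 lower).

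Same-numbered arrays did not vary together, with correlations of deviations from -0.115 to 0.119 and above 0.1 in 1 of 10 pairs of groups, so the numbers were not taken as pairs. With the replicate number as a block, counts were 11 in Col at 24 h, 11 in C24 at 3 h, 11 in C24 at 24 h, 12 between 24 h and 3 h, 15 and 11 between ecotypes at room temperature and 24 h, and 11 for the difference of responses. No average of several probe sets per gene was made, since each gene had 1.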
